A study of Mus musculus with 4 samples.

Results

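Gene desert peaks are the H3K27ac peaks of mouse Th17 cells that lie far from any protein-coding gene. They were chosen from the deposited peak list as the peaks narrower than 3000 bp whose nearest edge is 100 kb or more from the nearest annotated protein-coding gene (RefSeq, GRCm38) on chromosomes 1 to 19 and X. The rule took 2822 of the 56284 peaks on these chromosomes (5.01%), out of 56285 in the list, and they held 1887 kb, or 2.92% of the acetylated length. Width and distance from genes chose the peaks, so the values of both are given as description.

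H3K27ac, the acetylation of lysine 27 of histone H3, marks active promoters and active enhancers. An enhancer can act on a gene over a long distance, and the wide intervals without protein-coding genes, called gene deserts, are known to hold enhancers of genes at their borders. Deserts are also known to border developmental regulators that are silent in most cells. H3K27ac by itself does not say which gene an enhancer acts on.

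C57BL/6 mice gave the naive CD4+ T cells, which were turned into Th17 cells in culture over 72 h. Per the labels they received 0.1 ng/mL of TGF-β and 20 ng/mL of IL-6, with 0.25 µg/mL of antibody to CD3ε and 1 µg/mL of antibody to CD28, in all samples alike. From each of 2 biological replicates came 1 H3K27ac library and 1 input library. Per the growth protocol, TGF-β ran over a range that includes the dose of the labels. The deposited file is 1 list for the cell type with positions only, so no value has a replicate error, the read depth is unknown, and peaks and genes are not replicates. As a check of the cell label, the T cell and Th17 marker genes Cd3e, Cd3g, Cd4, Il17a, Il17f, Il23r and Ccr6 each had a peak within 1000 bp of an annotated gene end. Of the markers of other cells, Pax5, Csf1r, Adgre1, Gata1, Cd8a, Ncr1 and Epcam had no such peak. The split was not clean in the gene lists used below. Of the listed genes that flank a desert, 3 of 6 Th17 genes had such a peak, as did 3 of 5 regulators of B, myeloid and erythroid cells. Such a peak was found for 53.8% of all protein-coding genes and for 1076 of the 2598 genes that flank a desert. These counts of 6 and 5 genes are too small to set against those shares.

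"Gene desert" here means without protein-coding genes, not without genes. Some members lay on the promoters of long noncoding RNA (lncRNA) genes, and 4 of these promoters are shown because their deserts hold some of the largest groups of members. A promoter is the window from 250 bases before to 50 bases after an annotated start (RefSeq, GRCm38.p6), written 5′ to 3′ on the strand of the gene. Capitals mark each match on either strand to TGANTCA (AP-1), TGTGGT (RUNX), GGAAGT (ETS), TTCNNNGAA (STAT) or AGGTCA (ROR), motifs of factor families that act in T cells.

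Morrbid promoter, chr2:128429302-128429601, minus strand: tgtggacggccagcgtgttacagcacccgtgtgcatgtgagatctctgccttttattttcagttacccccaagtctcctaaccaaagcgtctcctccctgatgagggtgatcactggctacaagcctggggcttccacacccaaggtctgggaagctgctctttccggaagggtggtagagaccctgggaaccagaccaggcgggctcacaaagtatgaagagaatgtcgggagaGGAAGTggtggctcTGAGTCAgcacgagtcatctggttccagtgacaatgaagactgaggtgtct

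Gm46343 promoter, chr12:25303526-25303825, plus strand: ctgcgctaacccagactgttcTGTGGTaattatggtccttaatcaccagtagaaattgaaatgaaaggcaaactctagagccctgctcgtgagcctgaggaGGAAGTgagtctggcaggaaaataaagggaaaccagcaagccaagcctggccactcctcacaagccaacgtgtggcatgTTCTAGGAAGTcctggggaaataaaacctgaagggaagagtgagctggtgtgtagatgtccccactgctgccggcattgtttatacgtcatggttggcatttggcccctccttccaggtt

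Dubr promoter, chr16:50732724-50733023, minus strand: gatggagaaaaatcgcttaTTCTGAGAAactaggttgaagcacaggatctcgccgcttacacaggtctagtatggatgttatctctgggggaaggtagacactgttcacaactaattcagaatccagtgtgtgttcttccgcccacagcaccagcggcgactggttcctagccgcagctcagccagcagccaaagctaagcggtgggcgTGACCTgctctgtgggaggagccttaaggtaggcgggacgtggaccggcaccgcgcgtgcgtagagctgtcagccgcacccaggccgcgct

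Firre promoter, chrX:50635272-50635571, minus strand: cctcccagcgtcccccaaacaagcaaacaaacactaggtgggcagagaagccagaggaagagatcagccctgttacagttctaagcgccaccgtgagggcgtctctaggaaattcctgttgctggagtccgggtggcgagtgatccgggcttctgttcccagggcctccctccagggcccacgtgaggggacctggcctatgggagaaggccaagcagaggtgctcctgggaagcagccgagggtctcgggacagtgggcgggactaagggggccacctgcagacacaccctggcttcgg

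Morrbid, a lncRNA gene known in mouse for restraining its neighbour Bcl2l11, has 221 of the 300 bases inside a member of 540 bp, and its window holds 1 AP-1 and 1 ETS match, both in the bases outside the member. Gm46343, in the desert beside Id2, lies wholly inside a member of 725 bp and holds 1 RUNX, 2 ETS and 1 STAT matches, the STAT match overlapping an ETS match. Dubr lies inside a member of 2079 bp at the Ccdc54 end of the Cblb desert, 140 kb from Ccdc54 and 1298 kb from Cblb. Its window holds 1 STAT and 1 ROR match and 19 CG dinucleotides. Firre, an X-linked lncRNA gene known for a role in nuclear organisation, lies inside a member of 911 bp and holds 0 of these matches and 12 CG dinucleotides. In all, members overlapped 58 RefSeq promoters of 52 lncRNA genes, and matches were counted over the whole window, inside or outside the member. AP-1 letters were in 9 of these 58 and in 7.81% of all 32851 RefSeq promoters, RUNX letters in 15 and 16.8%, ETS letters in 15 and 23.8%, STAT letters in 7 and 8.3%, and ROR letters in 12 and 16.3%. The 32851 hold 21045 protein-coding and 11806 lncRNA promoters. They are thus unlike the 58 in class, and shares for lncRNA promoters alone are not given. The median number of CG dinucleotides was 5 in the 58, 4 in all lncRNA promoters and 13 in protein-coding promoters. A match is a run of letters and not a bound site.

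Members also lay beside microRNA genes, although none overlapped one (0 of 2822). MicroRNA genes took only 0.00135% of the sequence that could hold a member, so hardly any overlap was possible. Of other peaks under 3000 bp, 0.185% overlapped one. The mature 3p arms of the pairs Mir29a and Mir29b-1, and Mir221 and Mir222, are shown because each pair shares its seed, bases 2 to 8, given in capitals (RefSeq, GRCm38.p6). They were chosen after the values were seen.

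mmu-miR-29a-3p: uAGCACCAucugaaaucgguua

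mmu-miR-29b-3p: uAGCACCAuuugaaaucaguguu

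mmu-miR-221-3p: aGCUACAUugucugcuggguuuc

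mmu-miR-222-3p: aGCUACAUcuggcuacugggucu

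Mir29a (chr6:31062660-31062747) and Mir29b-1 (chr6:31063023-31063093) had 5 members within 10 kb, which covered 2772 bp, and the nearest lay 397 bp from Mir29a. miR-29 is known in mouse helper T cells for repressing Tbx21, Eomes and Ifng. The desert around them, between Klf14 and Mkln1, held 35 members at 14.6 per 100 kb of sequence that could hold one. Mir221 and Mir222, on chromosome X between Dipk2b and Tex13c3, had 2 members within 10 kb, the wider one 2818 bp and the nearest 8724 bp from Mir222.

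Gene desert peaks thinned out with distance. Between 10 and 50 kb from a protein-coding gene there were 17.3 peaks under 3000 bp per Mb, and 10.5 per Mb between 50 and 100 kb. The members had 7.76 per Mb between 100 and 200 kb (1718 peaks), 3.22 between 200 and 500 kb (922 peaks), 1.04 between 500 and 1000 kb (163 peaks) and 0.249 between 1000 and 2000 kb (18 peaks). The remaining member (1) lay beyond the outermost protein-coding gene of its chromosome and has no such interval. Their median distance was 174 kb, with quartiles of 129 and 268 kb. Within 10 kb inside the limit of 100 kb lay 267 peaks with a median width of 410 bp, and within 10 kb outside it 235 with 504 bp. The 3 farthest members stood together 1411 to 1412 kb from Cntnap5b, in the desert between Cntnap5b and Cdh20 on chromosome 1. The next were 1 member of 320 bp between Kcnt2 and Cdc73, 1377 kb from Kcnt2, and 1 of 533 bp between Otol1 and Sis, 1324 kb from Sis.

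**Figure D1:**
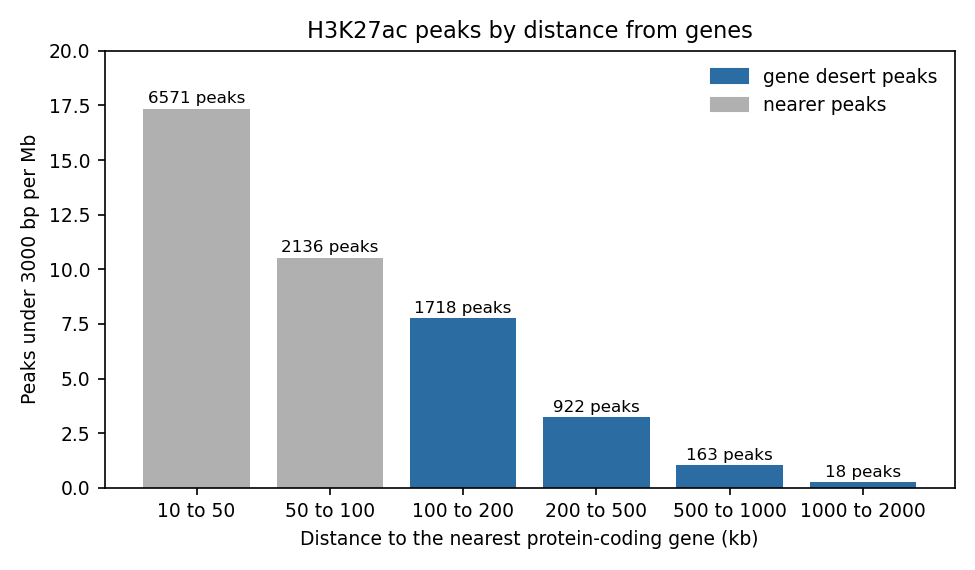
Number of peaks under 3000 bp per Mb of sequence between protein-coding genes (vertical axis) by distance to the nearest protein-coding gene in kb (horizontal axis), with the number of peaks above each bar; gene desert peaks are blue and nearer peaks grey. The density is 7.76 per Mb at 100 to 200 kb and 0.249 per Mb at 1000 to 2000 kb.

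In width the members were close to other peaks away from gene ends. Their median was 420.5 bp (quartiles 220 and 870 bp), against 443 bp for narrow peaks 50 to 100 kb from a gene, 446 bp at 10 to 50 kb, 406 bp inside protein-coding genes and 1277 bp within 1 kb of a protein-coding gene end, all under the same 3000 bp limit. Members of 1000 bp or more numbered 610 (21.6%), against 60.6% of narrow peaks at gene ends. The widest members were 2992 bp between Prickle1 and Adamts20, 2987 bp between Ccdc54 and Cblb, 2980 bp between Jun and Fggy, 2962 bp between Dusp6 and Csl and 2957 bp between Saraf and Dusp4. The width limit left out 197 peaks of 3000 bp or more at the same distances, with a median of 4461 bp and up to 31277 bp. Of desert peaks, 63 were up to 500 bp under the width limit (median 2716 bp) and 42 lay at it or less than 500 bp above.

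The list is numbered to 71449 in its peak names, and 15164 numbers are absent from it. Between neighbouring members of 1 desert 21.6% of the numbers were absent, against 21.2% elsewhere in the list. The sources used here do not say why numbers are absent.

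The members were gathered in few deserts. The genome has 1537 intervals between neighbouring protein-coding genes that are long enough to hold a member, with 738 Mb of sequence 100 kb or more from both genes, or 3.82 members per Mb. Of these deserts 383 (24.9%) held a member and 1154 held none. Of those with members, 95 held 1, the median was 3, and 46 deserts held at least 50% of all members. The 10 richest held 591 (20.9%). Assembly gaps were not removed from the lengths. By chromosome the density ran from 1.19 members per Mb on chromosome 11 to 10.4 on chromosome 13, where 97 of 348 lay in 1 desert. Chromosome 10 had 8.77 per Mb and chromosome X 1.45.

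The richest desert was that between Cd83 and Jarid2 (chr13:43803134-44730773), with 97 members at 13.3 per 100 kb of sequence that could hold one. Cd83 encodes a surface protein of activated lymphocytes and dendritic cells, and Jarid2 a component of Polycomb repressive complex 2. Its members made 10 groups of at least 5 (88 of the 97 members), and 65 lay nearer to Jarid2 and 32 nearer to Cd83. The desert between Myc, the growth regulator, and Gsdmc (chr15:61990362-63775970) held 85 members, 60 of them nearer to Myc. The desert between Id2, which encodes an inhibitor of E proteins, and Rnf144a (chr12:25096093-26306793) held 75, of which 56 lay toward Id2. The desert between Ccdc54 and Cblb, the gene of a ubiquitin ligase that restrains T cell activation (chr16:50591155-52031229), held 70, of which 66 lay toward Cblb.

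Next came the desert between Foxo1, a transcription factor of naive and memory T cells, and Cog6, a Golgi gene, with 54 members at 12.5 per 100 kb. The desert between Eea1, an endosome gene, and Btg1, an antiproliferative gene, held 49 at 13.2 per 100 kb. The desert between Satb1, a chromatin organiser of T cells, and the potassium channel gene Kcnh8 held 48, of which 35 lay toward Satb1, together with 15 peaks of 3000 bp or more. Between Akr1e1 and Klf6, a zinc finger factor gene, lay 39 members, 32 of them toward Klf6. The desert between Bcl2l11, which encodes the death protein BIM, and Spdye4c held 38 at 16.6 per 100 kb. The desert between Saraf, a regulator of calcium entry, and Dusp4, a MAP kinase phosphatase gene, held 36, of which 27 lay toward Dusp4. The members of the Foxo1 and Eea1 deserts were spread over both sides (23 toward Foxo1 and 31 toward Cog6, 25 toward Eea1 and 24 toward Btg1).

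**Figure D2:**
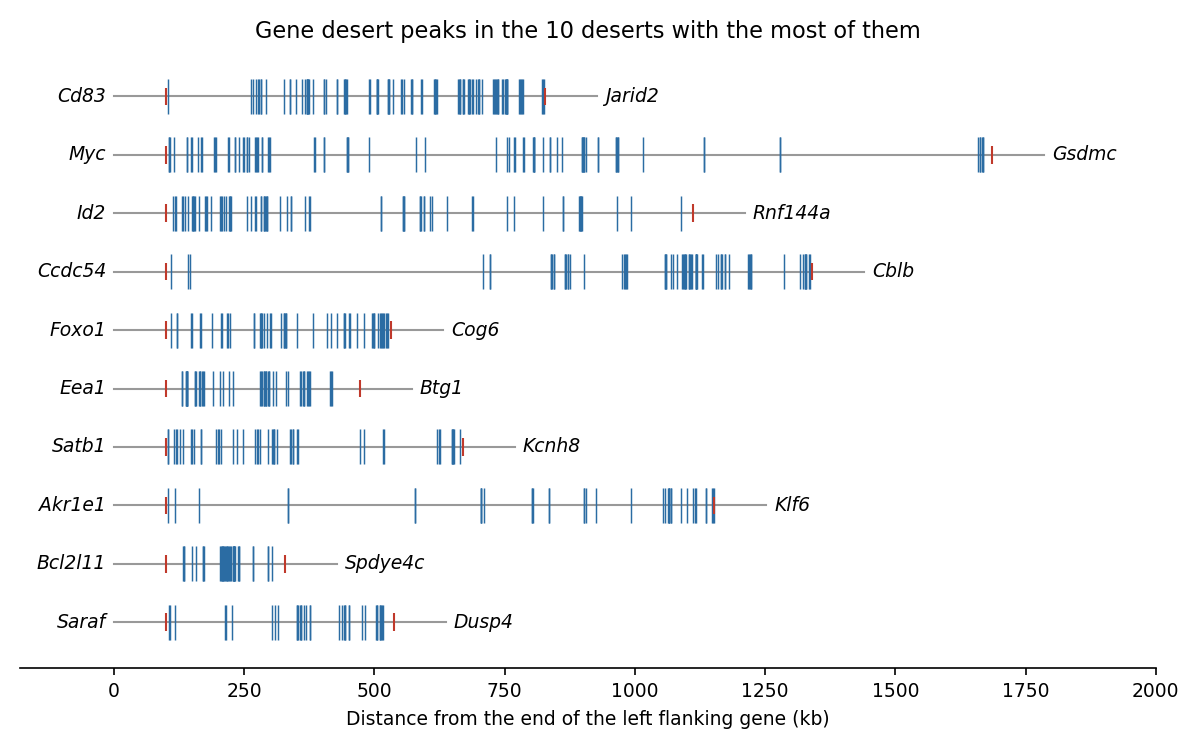
The 10 deserts with the most gene desert peaks, each drawn from the end of its left flanking gene (0) in kb along the horizontal axis, with the flanking genes named at both ends. Blue lines are gene desert peaks and red lines mark 100 kb from each gene; in the Cblb desert 66 of 70 peaks lie nearer to Cblb and in the Id2 desert 56 of 75 nearer to Id2.

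Most members stood close to another peak, somewhat more often than other narrow peaks did. The median gap to the nearest peak of any kind was 310 bp for members and 384 bp for other narrow peaks, and 66.1% of members, against 59.7% of other narrow peaks, had a neighbour within 1000 bp. At the other end, 206 members (7.3%) had no peak within 50 kb, against 3.5% of other narrow peaks. Chaining members across gaps of up to 12.5 kb gave 1083 chains, of which 471 were single peaks and 150 held at least 5 members. These 150 groups lay in 84 deserts and took 1162 members (41.2%), with a median of 6 members and a median span of 15.9 kb. Their members had a median width of 411 bp, and members alone in their chain 438 bp. A group counts each peak of the list, also where only a short gap parts it from the next. Merging peaks at most 1000 bp apart left 1456 members in place of 2822, and groups were not counted again after merging.

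The largest group had 26 members over 77.1 kb between Tnfaip3 and Olig3 (chr10:19164987-19242111), 150 kb from Tnfaip3 and 114 kb from Olig3. Tnfaip3 encodes A20, an inhibitor of NF-κB signalling, and Olig3 a neural transcription factor. The members covered 15689 bp and the widest was 2550 bp, and 2 peaks of 3000 bp or more lay among them. A second group of 6 members lay 101 kb from Tnfaip3, and the density in the desert as a whole was 22.7 members per 100 kb of sequence that could hold one. Tnfaip3 had a gene-end peak and Olig3 did not.

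A group of 25 members spanned 73.9 kb in the Cblb desert (chr16:51648175-51722040), 309 kb from Cblb and 1057 kb from Ccdc54. Its members covered 17714 bp, the widest 2373 bp, and 4 peaks of 3000 bp or more stood between them. Another 25 members filled 37.0 kb inside Morrbid (chr2:128366348-128403312), 204 kb from Bcl2l11 and 188 kb from Spdye4c, and covered 45% of that span. The widest were 2114, 2050 and 1766 bp, and no peak of 3000 bp or more lay in the group.

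The group of 25 at Firre (chrX:50565529-50635812) spanned 70.3 kb, and all of its members overlapped the gene, the last at its annotated start. Members at Firre were spaced along the gene, with a median width of 650 bp and the widest 2076 bp. The flanking genes, Olfr1324 and Stk26, lay 139 and 205 kb away. Firre is known to hold local repeats, and how reads that map to several places were handled is not given in the sources used here, so the number of peaks there is uncertain.

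**Figure D3:**
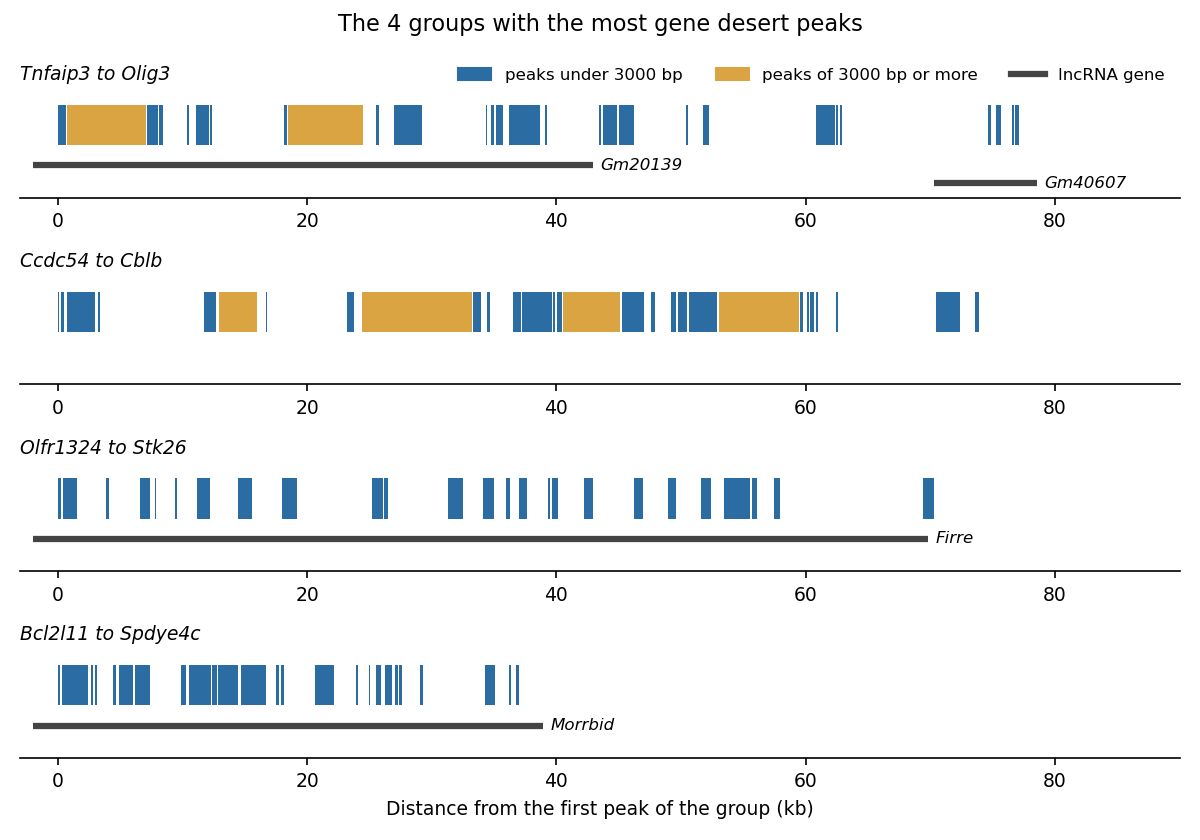
The 4 groups with the most gene desert peaks, each drawn to scale from its first peak in kb along the horizontal axis. Blue boxes are peaks under 3000 bp, orange boxes peaks of 3000 bp or more, and dark bars lncRNA genes, drawn no further than 2 kb past the group; the groups hold 26, 25, 25 and 25 gene desert peaks, and the Cblb group also 4 wider peaks.

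Further groups lay beside genes of lymphocyte regulation. In the Myc desert 19 members spanned 79.8 kb (chr15:62209886-62289685), 220 kb from Myc, over the end of the lncRNA gene Pvt1 and beyond it. In the Cd83 desert 3 of the 15 largest groups held 18, 15 and 13 members, 220, 172 and 545 kb from Jarid2. The Id2 desert had groups of 17 and 12 members, 111 and 255 kb from Id2. A group of 15 lay between Bcl6, a transcriptional repressor of follicular helper T cells, and Lpp (chr16:24181797-24238580), 193 kb from Bcl6 and 155 kb from Lpp. Groups of 13 lay in the Btg1 desert, 259 kb from Btg1, and in the Foxo1 desert, 106 kb from Cog6 and 495 kb from Foxo1.

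A group beside genes with no T cell role named here had 13 members in 14.9 kb (chr7:74679912-74694764) and covered 53% of its span. It lay 125 kb from the transporter gene Slco3a1, which had a gene-end peak, and 420 kb from Sv2b, a synaptic vesicle gene, which had none.

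The state of the flanking genes moved with the density of members, a measure the rule did not use. A gene counted as acetylated where a peak of any width lay within 1000 bp of an annotated end, which held for 53.8% of all 21631 protein-coding genes. Deserts with both flanking genes acetylated had 14.4 members per Mb (1258 members in 248 deserts), deserts with 1 had 3.89 (1345 in 702) and deserts with neither had 0.715 (218 in 587). At least 1 member was found in 56% of deserts with both acetylated, 25.8% with 1 and 10.7% with neither, against 24.9% of all deserts. Deserts with both acetylated were shorter (median 158 kb of sequence that could hold a member, against 234 kb with 1 and 239 kb with neither), and members are denser near genes. Within 100 to 200 kb of a gene alone, the order was kept, with 23.6, 7.74 and 1.62 members per Mb. Without the 10 richest deserts it was 10.4, 3.36 and 0.715. Base composition and mappability were not examined, and their part in the result was not tested.

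**Figure D4:**
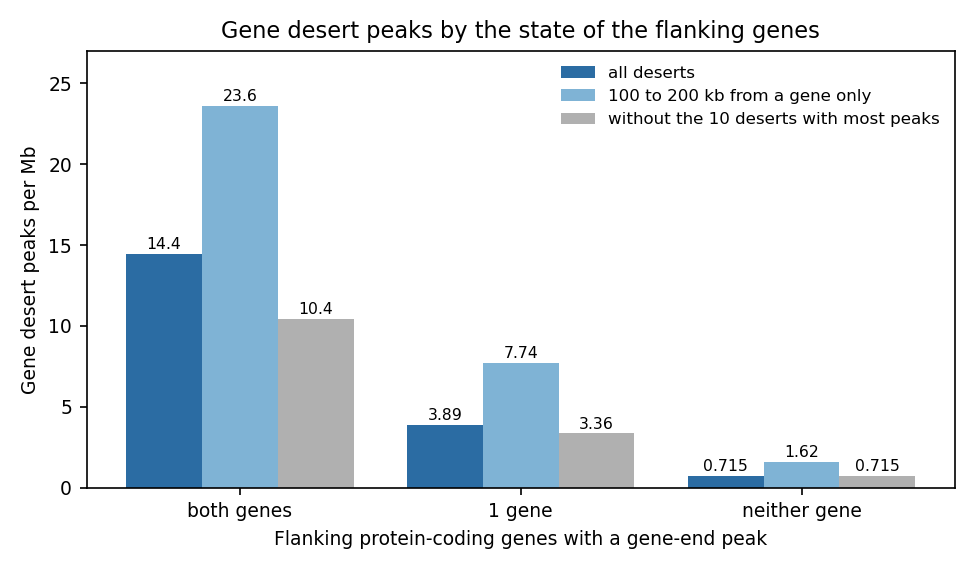
Gene desert peaks per Mb of sequence that could hold one (vertical axis) in deserts whose flanking protein-coding genes both, 1 or neither had a peak within 1000 bp of an annotated end. Bars are all deserts, the sequence 100 to 200 kb from a gene, and all but the 10 richest deserts; the densities over all deserts are 14.4, 3.89 and 0.715 per Mb.

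Members lay toward the acetylated gene where only 1 of the flanking genes was acetylated. Divided at the midpoint, both sides of such a desert have the same length, and 928 of 1345 members (69.0%) lay on the side of the acetylated gene. By desert, 107 of 181 had more members on that side, 64 fewer and 10 equal numbers. Without the 10 richest deserts the share was 68.2%. For the 150 groups the nearest flanking gene was acetylated in 124 (82.7%) and the farther one in 93 (62%). Of all 2598 genes that flank a desert, 1076 were acetylated. The groups lay in 84 deserts, so some flanking genes are counted repeatedly, Cd83 and Jarid2 10 times. These shares were not repeated without the richest deserts. The farther gene alone was acetylated in 17 groups, the nearest alone in 48, both in 76 and neither in 9. The largest group with neither held 10 members between Grm3, a glutamate receptor gene, and Gm5861 on chromosome 5, 519 kb from Grm3. Of its members, 4 overlapped the pseudogene Gm5152 and 3 the pseudogene Gm3313. How reads that map to several places were handled is not given in the sources used here.

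Of the genes beside deserts with a group, 115 of 165 (69.7%) were acetylated at an end, as were 327 of 575 (56.9%) beside deserts with members but no group and 694 of 2004 (34.6%) beside deserts with none. Deserts with a group were also longer, with a median of 407 kb of sequence that could hold a member, against 195 kb in deserts with none, and the part of length in this result was not tested.

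Among the listed genes, those of T cell regulation were often beside the groups. The lists were chosen with earlier results of these data known, so their shares are given as description only. Of 2598 genes that flank a desert, 165 (6.35%) flanked a group of at least 5 members. Among 37 T cell transcription factor genes, 19 flanked a desert and 10 of these (52.6%) flanked a group: Myc, Id2, Klf6, Foxo1, Satb1, Ets1, Bcl6, Gata3, Zeb2 and Bcl11b. All 19 had a gene-end peak, and of all genes with a gene-end peak that flank a desert 10.7% flanked a group. By the rule no group can start within 100 kb of a gene, and peaks nearer to the gene were not chained. Distances from gene to nearest group were 100 kb for Klf6, 103 kb for Satb1, 111 kb for Id2 and 223 kb for Ets1, a factor of lymphocyte development. For Gata3, the Th2 regulator, it was 164 kb, and for Bcl11b, a factor of T lineage commitment, 263 kb. Zeb2 counted only by being an end of its desert, since its group of 6 members lay 3198 kb away.

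In the Th17 program 6 of 26 genes flanked a desert and 2 of these (33.3%) flanked a group. Ahr, the aryl hydrocarbon receptor gene, had deserts on both sides with 36 members in all and 3 groups, the nearest 114 kb away. Nfkbiz, which encodes IκBζ, had 18 members in its desert and 1 group of 5, 247 kb away. That group lay nearer to Zpld1, the other end of the desert (226 kb). Among activation and cytokine genes 4 of 12 flanked a group (33.3%). They were Dusp4 with 36 members in its desert, Tnfaip3 with 32, the costimulatory receptor gene Icos with 12 and the TGF-β receptor gene Tgfbr2 with 10. Among migration genes 2 of 6 did so, the chemokine receptor gene Cxcr4 with 19 members and Cd47 with 8. Groups of at least 10 members were flanked by 5 of the 19 transcription factor genes, 1 of the 6 Th17 genes, 2 of the 12 activation genes and 0 of the 6 migration genes, against 1.69% of all genes that flank a desert.

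Most of the listed developmental and neuronal genes flanked a desert, and few of them flanked a group. Of 50 developmental regulators 44 flanked a desert and 1 (2.27%) flanked a group. This was Sox4, a factor also used in lymphocytes, with 17 members in its deserts and a group of 5 at 256 kb. Of 42 neuronal adhesion and receptor genes 37 flanked a desert and 0 flanked a group. Of the 44 developmental regulators 7 had a gene-end peak, and of the 37 neuronal genes 0. Of 17 regulators of B, myeloid and erythroid cells 5 flanked a desert and 1 of these (20%) flanked a group, Irf8, with 6 members in its desert. That group lay 215 kb from Irf8 and nearer to Foxf1, the other end of the desert (106 kb). Of these 5 regulators 3 had a gene-end peak. So did 3 of the 6 Th17 genes beside a desert, 12 of the 12 activation genes and 6 of the 6 migration genes.

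**Figure D5:**
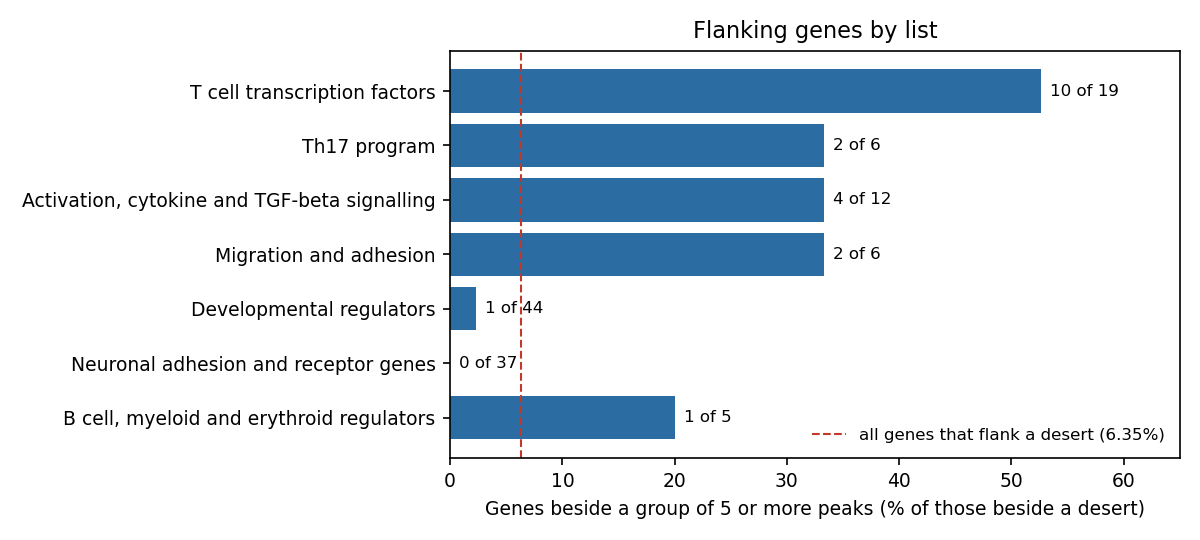
Share of genes that flank a group of at least 5 gene desert peaks, in percent of the genes of each list that flank a desert (horizontal axis), with counts beside the bars. The dashed line is the 6.35% of all genes that flank a desert. T cell transcription factor genes reach 10 of 19 and neuronal genes 0 of 37. The lists were chosen with earlier results of these data known.

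Noncoding genes were common under the members. Members overlapped an annotated gene other than a protein-coding one in 891 of 2822 cases (31.6%), while such genes took 11.7% of the sequence that could hold a member. Among the 49095 other narrow peaks the share was 12.7%. Of these peaks 24536 lay inside protein-coding genes and 10939 within 1 kb of a gene end. Those between genes were not compared apart. Most of the genes under members were lncRNA genes, which 810 members (28.7%) overlapped. LncRNA genes took 9.84% of the sequence that could hold a member. Pseudogenes were overlapped by 32 members (1.13%) and took 0.969%. In all, 278 lncRNA genes were overlapped, 16 of them by 10 members or more. A peak has a width, so an overlap is more frequent than the share of sequence even where positions are unrelated.

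Among lncRNA genes with a name of their own, Morrbid had 31 members that covered 15.9% of its 131 kb (chr2:128298663-128429351). Firre had 25 over 72.2 kb, or 23.4% of the gene (chrX:50563120-50635321). Pvt1, the lncRNA gene beside Myc, had 24 in the part of the gene that lies 100 kb or more from Myc, and these covered 16327 bp. Lncpint, a lncRNA gene induced by p53, had 21 members and 8973 bp. Mir100hg had 5 members, Junos, beside Jun, 4 and Lncenc1 4, while Dubr, Lncbate6, AI463229 and the transcript Vis1 had 1 each. A lncRNA gene and an enhancer inside it cannot be told apart by this mark.

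Antigen receptor loci entered the deserts because their segments are not annotated as protein-coding. They held 45 members in all. In the T cell receptor alpha locus (Tcra) 22 members covered 6615 bp, the widest 1756 bp. In the beta locus (Tcrb) 15 members covered 10352 bp, and members spanned all of the variable segments Trbv15 and Trbv16. The immunoglobulin heavy chain locus (Igh), which T cells do not use for a receptor, had 8 members that covered 3048 bp, the widest 819 bp.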

How the data were processed

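H3K27ac ChIP-seq was made on 2 IP and 2 input libraries. Per the submitters' processing notes, the build was GRCm38 (mm10) and the tools included MACS2 2.2.6, Bowtie2 2.3.4.1, deepTools and SAMtools 1.9. Peaks were called by MACS against the replicates' input DNA, per the design text of the series. The sources used here do not state the threshold, filters or pooling. The authors deposited chromosome, start, end and name for each peak, with no score or signal per library. Starts were taken as counted from 0, since the narrowest peaks then measure 100 bp, and are given counted from 1.

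Distance ran from the nearest edge of a peak to the nearest of 21631 protein-coding genes from RefSeq on GRCm38.p6, a patch release of the same build. Members were chained across gaps of up to 12.5 kb within a desert. Named genes are those flanking the 15 largest groups and 10 richest deserts, listed genes flanking a group of at least 5, the 5 farthest and 5 widest members, and named noncoding genes overlapped by a member. The others were chosen after their values were seen. Some genes and regions that the rule takes are not reported here. Members and gene lists were chosen with earlier results of these data known, and no test was run. The code was checked on simulated intervals. No genome sequence was used here, so motifs were searched in RefSeq promoters only. The figures were drawn with matplotlib 3.10.9, and values were computed in Python 3.11.15 with pandas 2.3.3 and numpy 2.4.6.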

Additional observations from a re-analysis of the deposited data

How the results depend on the processing

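The number of gene desert peaks follows its limits. It was 4964 at 50 kb or more and 1103 at 200 kb or more, 1229 without peaks under 500 bp, and 1456 where peaks at most 1000 bp apart were merged first, which also gave a median width of 801 bp. It stayed within 1.5 times of 2822 with no limit on width (3019), distance from the midpoint (2827), genes without olfactory, vomeronasal and predicted names (3080) and, chosen after seeing the data, antigen receptor loci left out (2777). Groups of at least 5 numbered 118 with gaps of up to 5 kb and 158 with 50 kb. The share on the acetylated side was 70.1% with a gene-end window of 2500 bp and 69.0% without peaks under 500 bp. Acetylated genes beside deserts without members were 36.8% with that window and 38.7% without olfactory, vomeronasal and predicted genes, against 71.5% and 71.4% beside deserts with a group. Noncoding overlap was 36.3% within 2000 bp. Listed genes beside a group, with gaps of up to 50 kb, numbered 11 T cell factors, 3 Th17, 6 activation, 3 migration, 2 developmental, 0 neuronal and 2 B, myeloid and erythroid genes. With groups of at least 10, chosen after seeing the data, they were 5, 1, 2, 0, 0, 0 and 0, against 1.69% of all genes that flank a desert. Densities within 100 to 200 kb and without the 10 richest deserts, also chosen after seeing the data, stand in the report (23.6, 7.74 and 1.62 per Mb, and 10.4, 3.36 and 0.715). No paired analysis was possible because the list carries no replicate, and for the same reason no replicate could be left out. Read depth is unknown, so a desert without a peak may hold acetylation under the unknown threshold of the call.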
